A study of Homo sapiens with 4 samples.

Results

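Levels of 9 human genes that sense double-stranded RNA or act on that signal were followed in a pair of cell lines, each with ADAR lowered or not: IFIH1, RIGI, DHX58, MAVS, EIF2AK2, OAS1, OAS2, OAS3 and OASL. They were taken by gene symbol from the annotation of the array, and all 9 were found among the 14232 genes with a value, each with 1 transcript cluster (the set of probes that reads 1 gene) of its own. EIF2AK2 also had 1 cluster annotated together with another gene, which was not used. The 4 exon arrays held total RNA of K562 cells with an siRNA against ADAR1 (ADARkd), K562 cells with a scrambled siRNA (SCR), cells labelled HepG2 with the ADAR1 siRNA, and cells labelled HepG2 with the scrambled siRNA, 1 array each. Both siRNAs were delivered from stably transfected plasmids, so the SCR cells had been transfected and selected too, and the siRNA used was the one of several that lowered ADAR most. K562 is a leukaemia line with erythroid features and was grown in RPMI medium. HepG2 is a line from a liver carcinoma and was grown in DMEM, so line and medium cannot be told apart. No group was replicated, so no difference within a line has an error of its own.

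Long double-stranded RNA is a sign of viral infection, and cells also make it from inverted repeats in their own transcripts. ADAR deaminates adenosines in such duplexes to inosine, which loosens them, and loss of ADAR is known to expose them to the sensors described here. RIG-I (RIGI) and MDA5 (IFIH1) are helicases that bind double-stranded RNA and signal through MAVS on mitochondria to induce interferon, and LGP2 (DHX58) is a related helicase that tunes both. PKR (EIF2AK2) is a kinase that stops translation by phosphorylating eIF2 alpha, and the oligoadenylate synthetases OAS1, OAS2 and OAS3 make the messenger that activates RNase L. OASL is a relative of these that makes no such messenger and assists RIG-I. Most of these genes are themselves induced by interferon through a promoter element read by interferon regulatory factors.

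RefSeq promoters (250 bases before and 50 after the gene's start, build GRCh38.p14) were at hand for 6 of the genes, without DHX58, OAS2 and OASL. They were searched on both strands for the core of the interferon-stimulated response element in 2 spellings, GAAANNGAAA and GGAANNGAAA (N is any base). No match of the first spelling overlapped a match of the second in these promoters. One spelling or the other was present in 5 of the 6 promoters, of RIGI, IFIH1, EIF2AK2, OAS1 and OAS3, and was not found in that window of MAVS. Among all 35116 promoters of this length 6.13% held one, and among 47 promoters of other interferon-stimulated genes 70.2% did. The matches are given in capitals, in full promoters for OAS1 and OAS3, which are next to each other on chromosome 12 and shared the difference between the lines described later, and in short stretches for the others. Each sequence reads 5′ to 3′ on the strand of its gene.
OAS1, chr12:112906712-112907011, plus strand: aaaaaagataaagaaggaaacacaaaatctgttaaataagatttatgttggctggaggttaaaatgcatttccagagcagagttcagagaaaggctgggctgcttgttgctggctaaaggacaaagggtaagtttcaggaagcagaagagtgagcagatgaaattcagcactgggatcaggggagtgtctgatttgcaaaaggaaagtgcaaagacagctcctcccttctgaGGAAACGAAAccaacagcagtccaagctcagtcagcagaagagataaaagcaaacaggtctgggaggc
OAS3, chr12:112938224-112938523, plus strand: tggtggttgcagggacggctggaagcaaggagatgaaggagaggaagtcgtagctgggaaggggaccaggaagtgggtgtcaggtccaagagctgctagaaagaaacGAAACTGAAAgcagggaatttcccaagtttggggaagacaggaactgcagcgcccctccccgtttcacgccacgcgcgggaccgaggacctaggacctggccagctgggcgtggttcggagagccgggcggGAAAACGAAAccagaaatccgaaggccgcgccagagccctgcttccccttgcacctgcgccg
EIF2AK2, chr2:37156957-37157006, minus strand: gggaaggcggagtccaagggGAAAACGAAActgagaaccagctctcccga
RIGI, chr9:32526371-32526420, minus strand: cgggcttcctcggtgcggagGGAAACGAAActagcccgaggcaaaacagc
IFIH1, distal stretch, chr2:162318808-162318863, minus strand: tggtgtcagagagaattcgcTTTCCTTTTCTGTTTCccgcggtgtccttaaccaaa
IFIH1, proximal stretch, chr2:162318676-162318725, minus strand: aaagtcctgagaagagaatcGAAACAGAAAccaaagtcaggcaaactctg

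The match lay within 21 bases before the start in IFIH1, OAS1 and OAS3 (from -21, -18 and -12), and in EIF2AK2 it ran across the start, from -6 to 4. In RIGI it lay farther out, from -204. OAS3 had another at -143, and IFIH1 had a pair on the opposite strand, from -159 and -153, that overlap. A second motif, GGGANNNNCC, the loose form of the site bound by NF-kB, was present in IFIH1, RIGI and OAS3 and in 25.6% of all promoters, and none of its matches overlapped the first motif. These matches are letters in the reference sequence and were not set against any binding data.

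**Figure D1:**
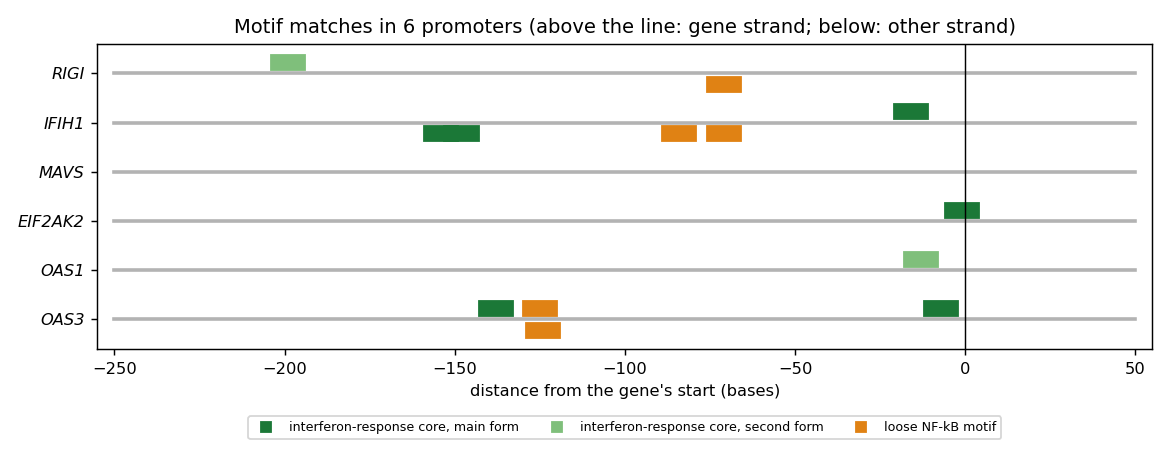
Motif matches in the promoters of 6 genes by distance in bases from the gene's start, with gene-strand matches above each line and opposite-strand matches below. Green boxes mark the 2 spellings of the interferon-response core, found in 5 of the 6 promoters, and orange boxes the loose NF-kB motif, found in IFIH1, RIGI and OAS3.

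The arrays were checked before the levels were read. ADAR stood at 6.78 on the log2 intensity scale in K562 ADARkd and 7.99 in K562 SCR, and at 7.27 in ADARkd and 8.96 in SCR of the arrays labelled HepG2, so the targeted transcript was 2.32-fold and 3.23-fold lower. A gene counts as kept in a line if its mean over that line's 2 arrays reached the median of all genes, 5.28 in K562 and 5.31 on the arrays labelled HepG2. Of 9 erythroid markers with a value, 8 were kept in K562 and 0 on the arrays labelled HepG2. Of 17 hepatocyte markers with a value, 2 (CPS1 and FOXA1) were kept on the arrays labelled HepG2. CPS1 was bright there, at 10.56 in ADARkd and 10.89 in SCR, against 3.29 and 3.21 in K562. Albumin (ALB) stood at 2.97 and 3.04 on the arrays labelled HepG2. These arrays therefore go against their label in most of the hepatocyte genes, though not in CPS1, and every result drawn from them is one of cells labelled HepG2. All values are of bulk RNA, in which fewer cells of a type and less RNA per cell cannot be told apart.

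The helicases were dim in both lines. RIGI had log2 intensities of 4.32 in K562 ADARkd, 4.26 in K562 SCR, 4.99 in HepG2 ADARkd and 4.54 in HepG2 SCR. IFIH1 stood at 4.19 in K562 ADARkd, 4.18 in K562 SCR, 3.84 in HepG2 ADARkd and 4.27 in HepG2 SCR. DHX58 stood at 3.96 in K562 ADARkd, 4.03 in K562 SCR, 3.94 in HepG2 ADARkd and 3.70 in HepG2 SCR. All 12 of these values lay under the median of all genes in their line. Signal over background was not analysed here, and differences among such dim values may be set in part by background.

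MAVS and EIF2AK2, the adaptor and the kinase, were kept in both lines. MAVS stood at 7.52 in K562 ADARkd, 7.39 in K562 SCR, 7.14 in HepG2 ADARkd and 6.95 in HepG2 SCR. EIF2AK2 stood at 6.96 in K562 ADARkd, 7.25 in K562 SCR, 7.72 in HepG2 ADARkd and 7.55 in HepG2 SCR. For MAVS both K562 arrays lay above both arrays labelled HepG2, and for EIF2AK2 both lay below. The share of all genes ordered in this way was not counted, so the order is no result about these genes.

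The oligoadenylate synthetase family split by line. OAS1 had intensities of 16.2 in K562 ADARkd and 14.4 in K562 SCR, against 210 in HepG2 ADARkd and 191 in HepG2 SCR, which are log2 values of 4.01, 3.85, 7.71 and 7.58. OASL had 16.3 and 15.0 in K562 ADARkd and SCR, against 77.3 and 73.0 in HepG2 ADARkd and SCR. OAS3 had log2 values of 4.46 and 4.35 in K562 ADARkd and SCR, against 6.34 and 5.65 in HepG2 ADARkd and SCR. For these 3 genes the K562 arrays lay under the filter level and the arrays labelled HepG2 above it. As background, 912 of the 8028 genes kept in at least 1 line were kept only on the arrays labelled HepG2. OAS2, whose gene follows OAS3 on chromosome 12 with 0 protein-coding genes between them, stood at 3.50 in K562 ADARkd, 3.34 in K562 SCR, 3.17 in HepG2 ADARkd and 3.26 in HepG2 SCR, and so was dim on all 4 arrays.

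**Figure D2:**
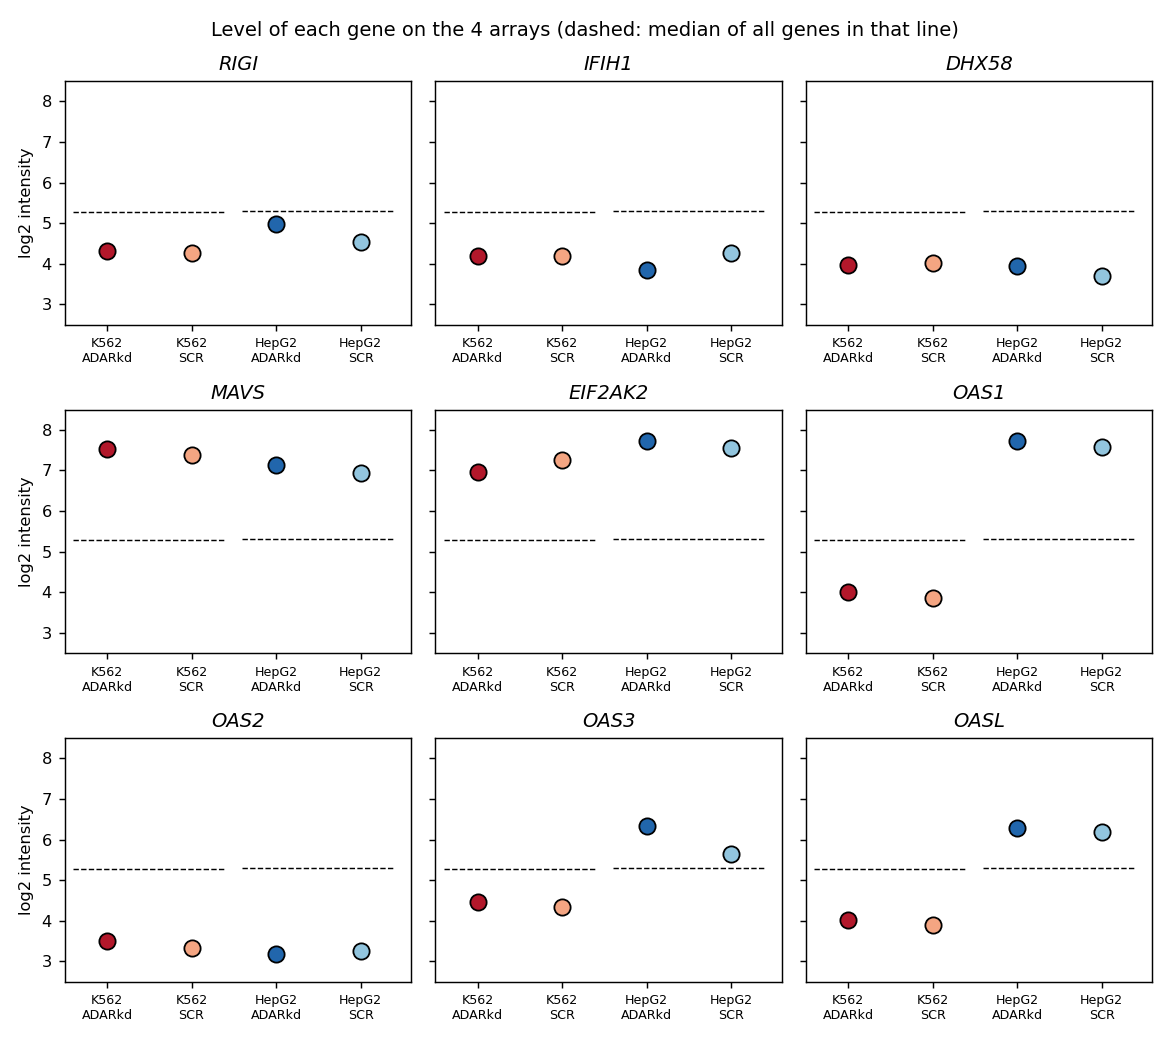
Log2 intensity of each gene (vertical axis) on the 4 arrays, 1 point per array, with dashed lines at the median of all genes in that line. OAS1, OAS3 and OASL lie under the line in K562 and above it on the arrays labelled HepG2, MAVS and EIF2AK2 lie above it on all arrays, and RIGI, IFIH1, DHX58 and OAS2 lie under it on all arrays.

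The 2 lines, K562 against cells labelled HepG2, were compared in a model with line and arm as terms (limma, two-sided, Benjamini-Hochberg adjustment over 8028 genes kept in at least 1 line). OAS1 was lower in K562 by 13.1-fold (log2 difference -3.71 ± 0.20, SE, 2 arrays per line; limma adjusted p = 1.43e-05). OASL was 4.81-fold lower in K562 (-2.27 ± 0.21; limma adjusted p = 0.000182) and OAS3 3.01-fold lower (-1.59 ± 0.23; limma adjusted p = 0.00164). These 3 entered the test through the line where they are bright, which favours a call, so their number is no support. Of the 912 genes kept only on the arrays labelled HepG2, 672 passed as lower in K562. In all, 14.7% of the genes tested passed as lower in K562 and 25.1% in either direction, at an adjusted p under 0.05 and at least 2-fold. With no filter on low values all 9 could be tested, and the same 3 passed, with 16.1% of 14232 genes passing in either direction and 9.26% as lower in K562. Their dim side lies under the filter level, so the sizes of the folds are uncertain.

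The other genes did not pass. MAVS differed by 0.41 ± 0.20 (limma adjusted p = 0.143) and EIF2AK2 by -0.53 ± 0.22 (limma adjusted p = 0.0918). After cyclic loess normalization EIF2AK2 had an adjusted p of 0.0348 by limma at a difference of -0.56, still under 2-fold. With no filter RIGI differed by -0.47 ± 0.19 (limma adjusted p = 0.0935), IFIH1 by 0.13 ± 0.19, DHX58 by 0.17 ± 0.18 and OAS2 by 0.20 ± 0.18.

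The difference between the lines could be read in each arm. OAS1 differed by -3.70 between the ADARkd arrays and by -3.72 between the SCR arrays, and OASL by -2.25 and -2.28, so both values of each gene lay closer together than the standard error. OAS3 differed by -1.88 between the ADARkd arrays and by -1.30 between the SCR arrays, and EIF2AK2 by -0.76 and -0.30. The 1 residual degree of freedom of the model is this disagreement between the arms, and nothing says that the 2 arrays of a line came from separate cultures, so these p-values are approximate and the spread may be technical.

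**Figure D3:**
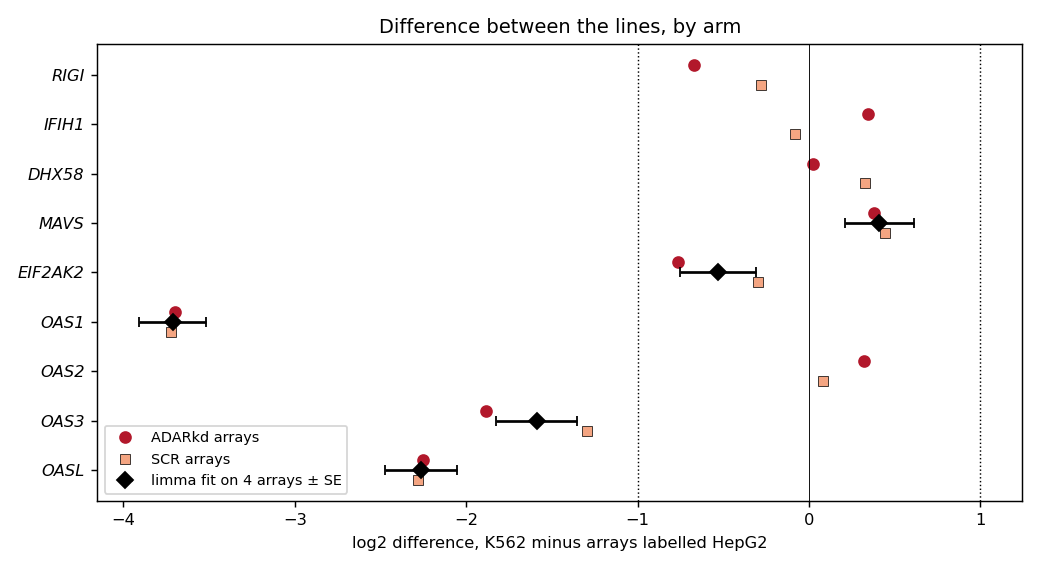
Log2 difference of K562 minus the arrays labelled HepG2 (horizontal axis) for each gene, from the ADARkd arrays (circles), the SCR arrays (squares) and the limma fit on 4 arrays with its SE (diamonds, for the genes past the filter); dotted lines mark 2-fold. OAS1, OASL and OAS3 lie beyond 2-fold lower in K562 in both arms, and the other genes lie inside 2-fold.

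The knockdown comparison asked whether these genes differed where ADAR was lower. None of the 9, kept or not, differed by 2-fold in either line. As background, 0.155% of the 7116 kept genes did so in K562 and 4.03% of the 7116 on the arrays labelled HepG2. With no filter, 30 of 14232 genes did so in K562 and 426 on the arrays labelled HepG2. At 1.5-fold, 1 of the 5 genes kept on the arrays labelled HepG2 did, OAS3, and 0 of the 2 kept in K562, against 18.1% of kept genes on the arrays labelled HepG2 and 1.03% in K562. OAS3 stood at 6.34 in HepG2 ADARkd and 5.65 in HepG2 SCR, a log2 difference of 0.70 (1.62-fold higher), ranked 583 from the highest of 7116. Its difference was 0.62 after quantile normalization and 0.72 after cyclic loess. With log2(value + 16) it was 0.56, which is under 1.5-fold, so the call depends on the scale. In K562, under the filter, OAS3 differed by 0.11.

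The scale of all genes shifted between the arms, and single values are read against it. On the arrays labelled HepG2 the median difference of kept genes was 0.11 and that of genes under the filter -0.04; quantile and loess normalization bring the kept median to 0.01. Of the genes there at least 2-fold apart, 175 were higher and 112 lower in ADARkd, against 124 and 140 after quantile normalization and 132 and 135 after loess. In K562 the kept median was -0.07 and that under the filter 0.13, where 74.8% of genes lay above 0.

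On the arrays labelled HepG2 the kept genes other than OAS3 lay near that shift: MAVS differed by 0.19, EIF2AK2 by 0.17, OAS1 by 0.14 and OASL by 0.08, which is 0.09, 0.07, 0.03 and -0.02 relative to the median of kept genes. After quantile normalization OAS1 and OASL both stood at 0.01. The dim helicases went different ways. RIGI differed by 0.44 (4.99 in ADARkd, 4.54 in SCR) and DHX58 by 0.24, while IFIH1 differed by -0.42 (3.84 in ADARkd, 4.27 in SCR). Among genes under the filter there, the middle 90% of differences ran from -0.52 to 0.41, so RIGI lay just outside this span and IFIH1 inside it. OAS2 differed by -0.08.

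In K562 the differences of the 9 genes were between -0.29 and 0.16. EIF2AK2 had the lowest, -0.29 (6.96 in ADARkd, 7.25 in SCR), and ranked 6342 from the highest of 7116, and MAVS, at 0.13, ranked 882. The middle 90% of kept genes ran from -0.38 to 0.22. The 7 dim genes lay between -0.06 for DHX58 and 0.16 for OAS1 and OAS2, beside the median of 0.13 for genes under the filter, and their direction turned with the scaling for RIGI, IFIH1 and OAS2 (negative after quantile normalization and after loess) and for OASL (negative after quantile normalization).

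**Figure D4:**
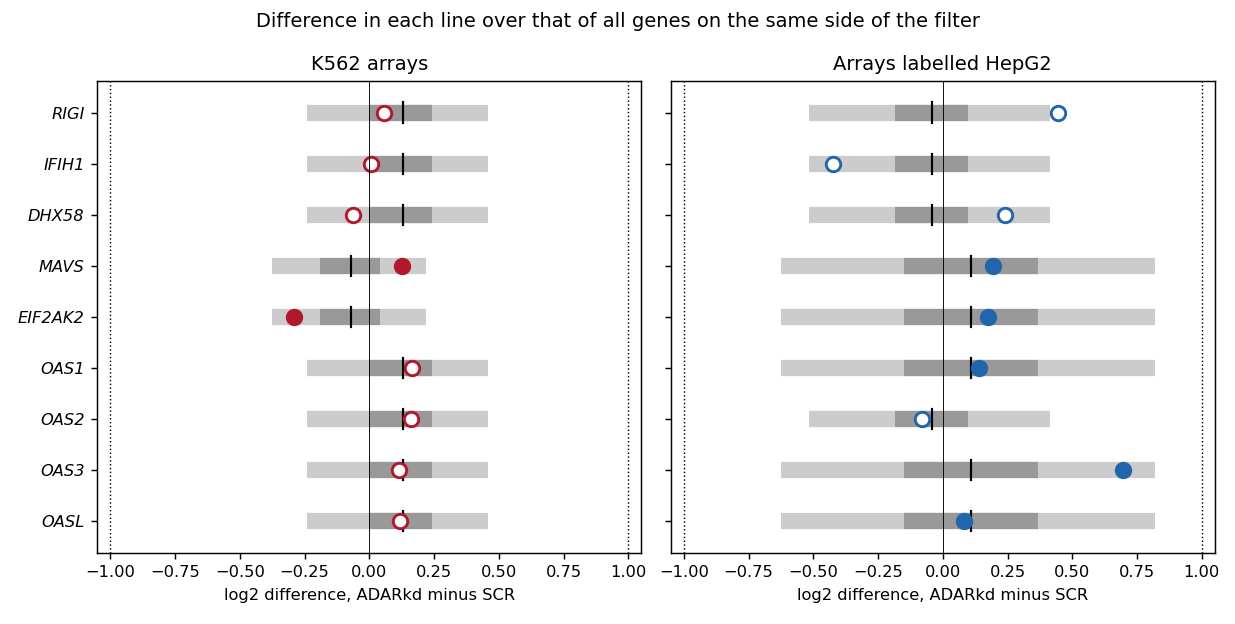
Log2 difference of ADARkd minus SCR (horizontal axis) for each gene in K562 (left) and on the arrays labelled HepG2 (right); filled points are genes kept in that line and open points genes under the filter. Grey bars span the middle 90% and 50% of all genes on the same side of the filter, with their median as a tick; no point reaches the dotted lines at 2-fold, and OAS3 on the arrays labelled HepG2 is the highest at 0.70.

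An effect shared by the lines was fitted with line as a term, on the 6204 genes kept in both. MAVS differed by 0.16 ± 0.21 (SE, 2 arrays per arm; limma adjusted p = 0.9996) and EIF2AK2 by -0.06 ± 0.22 (limma adjusted p = 0.9996). No gene passed in this fit (0 of 6204, 0% at an adjusted p under 0.05 by limma; 179 at an unadjusted p under 0.05). ADAR itself, at -1.45 ± 0.22, also missed the threshold (limma adjusted p = 0.871), although it was lower in both lines. With no filter OAS3 had the largest shared difference of the 9, 0.41 ± 0.21 (limma adjusted p = 0.99997).

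Markers of other cell types also differed between the arms labelled HepG2. Of 12 fibroblast and stromal markers with a value, 8 were kept, with a median difference of -0.83, and 4 of the 8 were at least 2-fold lower in ADARkd (1.57% of all kept genes). The 4 were COL3A1 (-2.42), FN1 (-1.80), FAP (-1.66) and COL1A1 (-1.12), while LUM (0.78) and DCN (0.64) were higher in ADARkd. The summed intensity of all 12 was 2439 in ADARkd and 2487 in SCR. Bright markers weigh most in this sum: LUM had 1037 in ADARkd and 604 in SCR, and DCN 505 and 324. Near-equal sums therefore do not mean that the single markers were unchanged. Of 7 epithelial markers, 4 were kept, with a median of 0.74. The summed intensity of all 7 was 2253 in ADARkd and 1511 in SCR. No marker had an intensity of 0, which does not show that each was detected. CDH1, under the filter, had log2 values of 3.21 in HepG2 ADARkd and 3.29 in HepG2 SCR. The part of these markers in the OAS3 difference was not tested.

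Partners of the sensors were described from lists of known pathway genes. Of 25 genes of RIG-I-like receptor and MAVS signalling, 21 had a value. On the arrays labelled HepG2, 3 of 17 kept were at least 1.5-fold higher in ADARkd and 0 lower (12.4% and 5.73% of all kept genes), with a median of 0.22: TRAF3, a ubiquitin ligase downstream of MAVS (0.71), TBK1, the kinase of IRF3 (0.65), and TRIM25, a ubiquitin ligase that activates RIG-I (0.61). In K562 0 of 15 were 1.5-fold apart, near the 1.03% of all kept genes there, with a median of -0.07. AZI2, an adaptor that binds TBK1, was the lowest at -0.37.

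Of 16 genes around PKR and eIF2, 15 were kept in each line. On the arrays labelled HepG2, 2 of 15 were at least 1.5-fold higher in ADARkd and 0 lower, with a median of 0.25, and the share higher is near the 12.4% of all kept genes. The 2 were PPP1R15A, which brings a phosphatase to eIF2 alpha (0.89), and EIF2B3, a subunit of the exchange factor of eIF2 (0.82), and DNAJC3, an inhibitor of PKR, was next at 0.58. In K562 0 were 1.5-fold apart (median -0.08), near the 1.03% of all kept genes there, with DNAJC3 at -0.27. Of 3 genes acting with RNase L, ABCE1, an RNase L inhibitor, had a value, and its difference was -0.22 in K562 and 0.40 on the arrays labelled HepG2.

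Of 29 other double-stranded RNA-binding proteins and sensors beside ADAR, 18 were kept on the arrays labelled HepG2, where 4 were at least 1.5-fold higher and 1 lower in ADARkd, with a median of 0.24 (12.4% and 5.73% of all kept genes were so, and 1 of 18 is near the share lower). SUPV3L1 (0.82) and PNPT1 (0.76), which degrade RNA in mitochondria, led them. In K562 0 of 17 were 1.5-fold apart, near the 1.03% of all kept genes there, with STRBP at -0.38 and a median of -0.10. Of 20 interferons, receptors and STAT signalling genes, 12 had a value and 6 were kept on the arrays labelled HepG2, where 1 was at least 1.5-fold higher and 1 lower in ADARkd (median 0.13; all kept genes 12.4% and 5.73%): the receptor chain IFNAR2 differed by 0.75 and IRF9, which carries STAT dimers to the response element, by -0.68. In K562 0 of 5 were 1.5-fold apart (median -0.17), near the 1.03% of all kept genes there, with IFNAR2 at -0.37. Interferon beta (IFNB1) stood at 2.71 and 2.58 in K562 ADARkd and SCR and at 2.43 and 2.73 in HepG2 ADARkd and SCR, under the filter on all 4 arrays.

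Other interferon-stimulated genes bear on the same response element. On the arrays labelled HepG2, 2 of 18 kept were at least 1.5-fold higher and 5 lower in ADARkd (median -0.06), where 12.4% of all kept genes were higher and 5.73% lower, with SAMD9 at 1.39, PARP9 at -0.91 and XAF1 at -0.82. In K562 0 of 8 were 1.5-fold apart (median -0.23), near the 1.03% of all kept genes there, with IFI6 at -0.55. Between the lines, 20 were tested, and the 12 that passed as lower in K562 are the 12 kept only on the arrays labelled HepG2, so they entered the test through the line where they are high and their count is no support. Of the 6 kept in both lines 0 passed, and of the 2 kept only in K562 0 passed. With no filter, 14 of all 33 with a value passed as lower in K562 and 1 as higher (9.26% and 6.84% of all genes by that fit). IFIT2 (-4.14 ± 0.22; limma adjusted p = 1.41e-05) and IFIT1 (-3.99 ± 0.20; limma adjusted p = 1.35e-05), which bind foreign RNA, had the largest differences among the 12. By the filtered fit, in which 10.3% of all genes tested were higher in K562 and 14.7% lower, 1 of 18 genes of RIG-I-like receptor and MAVS signalling passed as higher and 4 as lower, led by TRIM25 at -1.82; 2 of the 4 were kept only on the arrays labelled HepG2. Around PKR and eIF2 1 of 15 passed as higher, EIF2B3 at 1.56, and 1 as lower, PPP1R15B at -1.40. Of the other double-stranded RNA-binding proteins, ADAR included, 2 of 19 passed as higher, STRBP at 1.46 and DGCR8 at 1.42, and 1 as lower, ADARB1, the second active deaminase, at -2.40.

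**Figure D5:**
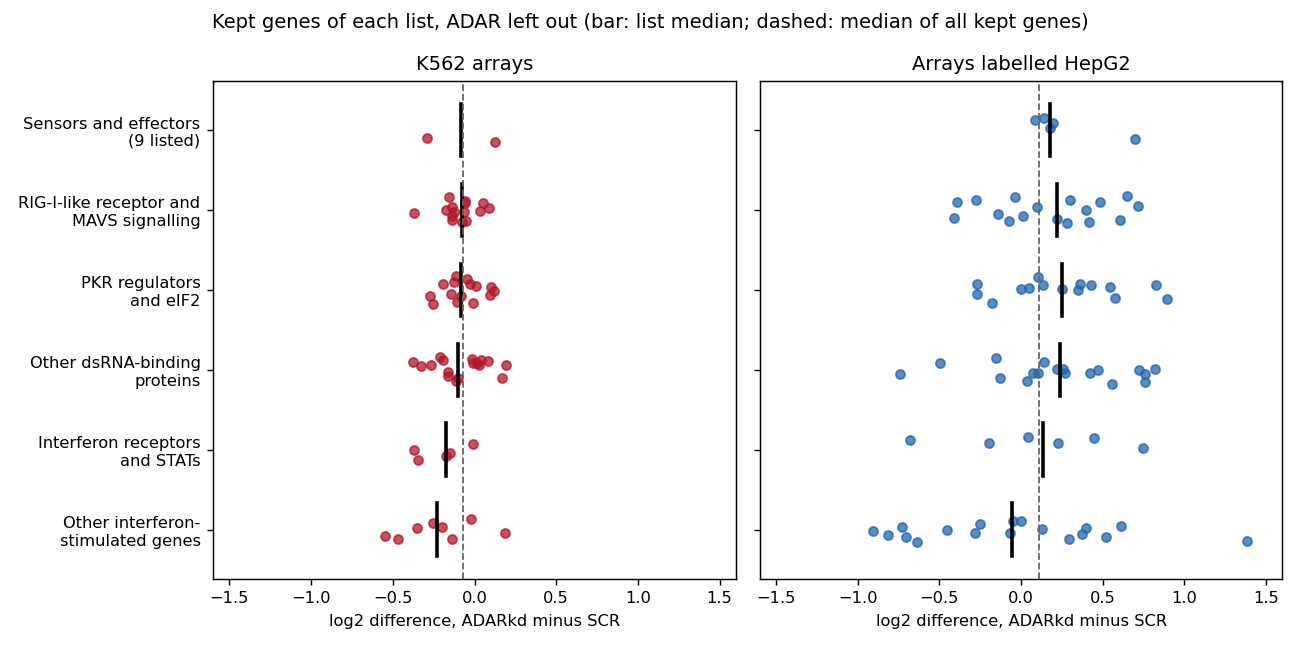
Log2 difference of ADARkd minus SCR (horizontal axis) of the kept genes of 6 lists in K562 (left) and on the arrays labelled HepG2 (right), 1 point per gene, ADAR and the RNase L list (1 kept gene, ABCE1) left out; black bars are list medians and dashed lines the median of all kept genes, -0.07 and 0.11. The medians of the 6 lists lie between -0.23 and -0.07 in K562 and between -0.06 and 0.25 on the arrays labelled HepG2.

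The genes closest to each kept member in pattern were found by Euclidean distance between log2 values on the 4 arrays, after each gene's own mean was taken away, among 8027 other genes. OAS3 lay closest to IRAK2, a kinase of interleukin receptor signalling (distance 0.10), and SH3RF1 (0.10). OAS1 lay closest to C2orf74-DT (0.08) and EYA4 (0.10), and OASL to MOSPD1 (0.06) and TCEAL1 (0.09). EIF2AK2 was closest to ZFYVE16 (0.02) and MAVS to CIAO2B (0.01). These distances rest on 4 arrays and describe likeness in level alone.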

How the data were processed

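Total RNA was labelled with biotin for Affymetrix exon arrays, 1 array per line and arm, per the labels' protocols. The authors deposited a table of intensity values per transcript cluster on a linear scale; per the submitters' processing notes RMA was used, with hg18 as the build, and later steps, not given in the sources used here, are left unstated. The median intensity per array was 36.1 to 37.0. With 1 array per group, array number sets the precision. Of 17881 transcript clusters, 14432 had 1 gene symbol, 2408 several and 1041 none in the platform annotation. Those with 1 symbol were used, and of them 14404 matched RefSeq by Entrez number. For 197 genes with more than 1 cluster the brightest was used. The log2 values were computed here from the deposited intensities, without an offset. Kept genes of a line were those whose mean over that line's 2 arrays reached the median of all genes.

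Differences within a line have no test. K562 minus HepG2 and the shared effect of knockdown were modelled over all genes in R 4.3.3 by limma 3.58.1, with moderated variances that follow a trend in intensity and with 1 residual degree of freedom. The fits were run on simulated data for genes kept in both lines, with noise drawn from the model's own variance estimate. Such a run cannot speak to genes kept in 1 line or to the lack of replicates. The genes named from the pathway lists were those with the largest differences, up to 3 per list and comparison, from which the text gives a part; LUM, DCN, ALB, CPS1, FOXA1 and IFNB1 were chosen after their values were seen. The members and lists were chosen with earlier results of these data known, so they are not independent evidence. Sequences are RefSeq's, read from a promoter table. Alternatives were quantile and cyclic loess normalization, other filters, log2(value + 16), the mean of all clusters, no intensity trend, no arm term and each arm alone.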

Additional observations from a re-analysis of the deposited data

Results flagged for a closer look

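EIF2AK2, kept in both lines, differed by -0.29 between ADARkd and SCR in K562 and by 0.17 on the arrays labelled HepG2, so the single pairs of arrays point opposite ways. All kept genes leaned the same ways, with 33.3% above 0 in K562 and 60.9% on the arrays labelled HepG2. Relative to the median of kept genes EIF2AK2 differed by -0.22 in K562 and 0.07 on the arrays labelled HepG2. The difference between the lines was not tested, since 1 array per line and arm leaves no spread for it. After quantile normalization the values were -0.22 in K562 and 0.04 on the arrays labelled HepG2.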

How the results depend on the processing

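Between the lines, OAS1, OAS3 and OASL stayed lower in K562 and past the threshold under each alternative in which they were tested, with log2 differences of -3.80 to -2.79, -1.88 to -1.11 and -2.44 to -1.53 (values from a single arm included, which have no test). With the filter at the 75th percentile OAS3 and OASL were not tested. MAVS and EIF2AK2 stayed under 2-fold in all. The number of genes that passed between the lines was 2014, against 1159 under that stricter filter. On the arrays labelled HepG2, 287 genes were at least 2-fold apart, against 116 with the stricter filter and 186 with log2(value + 16); in K562 the number was 11, against 1 and 7, and 30 with no filter. A stricter filter tests fewer genes and an offset shrinks dim differences by construction. None of the alternatives gave the shared effect a call or brought one of the 9 genes to 2-fold within a line. The shared effect was fitted with line as a term, which pairs the arms within each line. No paired analysis was possible by replicate number because each line and arm has 1 array. Dim values, those of RIGI, IFIH1, DHX58 and OAS2 on every array among them, are limited by background that was not analysed.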

Other observations

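DDX60, an interferon-induced helicase reported to assist RIG-I, was seen to stand apart after its values were known. It stood at 2.68 and 2.40 in K562 ADARkd and SCR, and at 3.94 in HepG2 ADARkd and 5.44 in HepG2 SCR, a log2 difference of -1.50 on the arrays labelled HepG2. Its mean there lay under the filter level, so it entered none of the counts. Genes often read as a sign of interferon signalling were chosen in the same way, so they do not stand for the whole list. On the arrays labelled HepG2, IFIT1 stood at 7.37 in ADARkd and 7.42 in SCR, IFI44L at 3.22 and 3.97, and IFI6 at 6.31 and 7.02. MX1, the only one of these that was higher in ADARkd, stood at 3.79 and 3.70. MX1 and IFI44L were under the filter in both lines, so the rise of MX1 is between dim values. Of the 18 other interferon-stimulated genes kept on the arrays labelled HepG2, 8 had a difference above 0, where 60.9% of all kept genes did.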
